A study of Mus musculus with 34 samples.

Results

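Insulin receptor signalling and the glucose transporter it controls were followed through 9 genes: Insr, Irs1, Irs2, Pik3r1, Akt1, Akt2, Tbc1d4, Slc2a4 and Foxo1. They were chosen by gene symbol, and all 9 were found among the 15777 genes of the adipose and heart count tables, in both tissues. All 9 passed the low-count filter in each tissue. RNA sequencing was done on C57BL/6J mice aged 20 to 22 months in 3 diet groups. Control mice ate a diet with 10% of its calories from fat, and HFCD mice ate a high-fat, high-calorie diet with 60% of its calories from fat. HFCD+FMD mice ate the same HFCD, which a fasting mimicking diet (FMD) replaced for 5 days every 4 weeks, and in the later cycles 2 days of control diet came after it. The treatment label of all 3 groups reads 11 cycles and 4 days, and the tissues were collected 4 days after the last fast. Adipose tissue gave 3 control, 4 HFCD and 6 HFCD+FMD libraries, and heart gave 5, 5 and 4. The fat depot and the part of the heart were not given in the sources used here.

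Insulin binds the receptor encoded by Insr, which phosphorylates the adaptor proteins IRS1 and IRS2. The adaptors recruit phosphoinositide 3-kinase through its regulatory subunit, encoded by Pik3r1, and the kinases AKT1 and AKT2 are activated. AKT phosphorylates TBC1D4, which releases vesicles carrying GLUT4, the product of Slc2a4, to the surface of fat and muscle cells, and it also holds the transcription factor FOXO1 out of the nucleus. Most of this pathway runs by phosphorylation and protein movement, which messenger RNA levels do not measure.

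The libraries held 15604982 to 47859170 counts. Markers of fat cells and heart muscle matched the tissue labels: Adipoq, which encodes adiponectin, lay between 1390 and 4260 CPM in adipose libraries and between 0.0722 and 9.31 CPM in heart. The cardiac myosin gene Myh6 lay between 11000 and 18000 CPM in heart and between 0.0905 and 43.9 CPM in adipose tissue. CPM is the counts-per-million unit, here with library totals scaled by the trimmed mean of M-values (TMM). Mitochondrially encoded genes took 12.6 to 29.3% of the counts in adipose control libraries, 2.17 to 6.08% in HFCD and 2.20 to 7.47% in HFCD+FMD. In heart they took 21.8 to 32.6%, 36.4 to 71.5% and 29.5 to 62.0%. The 27 libraries were not tied to animals by the labels, so p-values measure the spread between libraries. The study's design gives 18 mice, fewer than the libraries, so some mice gave both tissues. In bulk tissue, fewer cells of a type and less RNA per cell cannot be told apart.

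On the control diet the order of the 9 genes differed between the tissues. Levels between genes were compared as CPM per kilobase of all annotated exons, which understates genes with long, rarely used exons. Each tissue was scaled on its own here, so these values rank genes within a tissue and cannot be compared between the tissues. Insr, Irs1, Irs2 and Foxo1 overlap genes annotated on the other strand, and whether counting used the strand was not given in the sources used here. In adipose control libraries Slc2a4 stood highest at 67.2 ± 14.9 CPM per kilobase (SD, n = 3), followed by Foxo1 at 41 ± 2.12. Akt2 (28.5 ± 5.70), Pik3r1 (25.5 ± 2.69) and Akt1 (23.9 ± 3.60 CPM per kilobase) came next and did not differ beyond their spread. Irs2 (17 ± 3.12), Insr (13.0 ± 2.68), Irs1 (12.5 ± 4.33) and Tbc1d4 (11.2 ± 1.99 CPM per kilobase) were the lowest, with overlapping spreads between neighbours. In heart control libraries (n = 5) Slc2a4 also led, at 101 ± 7.69 CPM per kilobase, and Akt1 was next at 38.5 ± 4.17. Pik3r1 (16.4 ± 5.68), Insr (11.6 ± 2.80), Tbc1d4 (11.0 ± 3.06) and Akt2 (9.34 ± 0.572 CPM per kilobase) followed, with overlapping spreads between neighbours. Irs1 (4.6 ± 1.07) and Foxo1 (4.21 ± 0.397) did not differ beyond their spread, and Irs2 was lowest at 2.42 ± 0.638 CPM per kilobase.

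Heart and adipose tissue were set against each other directly in an edgeR fit that scaled both tissues together. On the control diet 7 of the 9 genes differed between the tissues, where 63.8% of the 12606 genes tested did so at an adjusted p under 0.05. Higher in heart were Akt1 (log2 fold change 1.58, SE 0.18, adjusted p = 2.16e-08), Slc2a4 (1.49, SE 0.30, adjusted p = 0.00015), Tbc1d4 (0.87, adjusted p = 0.00027) and Insr (0.73, adjusted p = 0.000968). Lower in heart were Foxo1 (-2.39, SE 0.20, adjusted p = 1.97e-10), Irs2 (-1.92, SE 0.29, adjusted p = 3.51e-06) and Akt2 (-0.71, adjusted p = 0.00802). The AKT genes differed between the tissues in opposite directions: in the shared scaling Akt1 averaged 72.2 ± 11.1 CPM in adipose tissue and 217 ± 22.5 in heart, and Akt2 averaged 150 ± 29.7 and 91.4 ± 5.34 CPM (SD). Irs1 (-0.55, adjusted p = 0.136) and Pik3r1 (0.25, adjusted p = 0.338) did not pass.

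Promoter sequence is shown for the 5 genes with a RefSeq entry whose RNA changed on HFCD in adipose tissue, since 4 of them moved down together and Akt1 moved up. RefSeq (GRCm38.p6) promoter windows were matched by symbol for 7 of the 9 genes, all but Insr and Slc2a4. Each run below holds the 250 bases before the outermost listed start, read 5′ to 3′ on the gene's strand. Capitals mark the GC box GGGCGG, the E-box CACGTG and the FOXO motif GTAAACA, each searched on both strands, and in these windows no match overlapped another. The windows lie at chr1:82291440-82291689 (minus strand) for Irs1, chr13:101768218-101768467 (minus) for Pik3r1, chr14:101609192-101609441 (minus) for Tbc1d4, chr3:52268087-52268336 (plus) for Foxo1 and chr12:112674885-112675134 (minus) for Akt1.
Irs1: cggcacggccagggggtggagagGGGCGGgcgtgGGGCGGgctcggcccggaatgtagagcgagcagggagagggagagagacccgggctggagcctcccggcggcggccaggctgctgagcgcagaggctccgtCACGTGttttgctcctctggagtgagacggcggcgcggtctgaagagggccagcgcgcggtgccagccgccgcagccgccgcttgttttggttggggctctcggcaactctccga
Pik3r1: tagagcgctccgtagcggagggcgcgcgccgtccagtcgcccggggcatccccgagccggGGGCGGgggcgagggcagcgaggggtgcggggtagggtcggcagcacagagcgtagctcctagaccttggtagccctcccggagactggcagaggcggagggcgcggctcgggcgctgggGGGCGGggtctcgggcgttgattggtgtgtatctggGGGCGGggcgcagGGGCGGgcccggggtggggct
Tbc1d4: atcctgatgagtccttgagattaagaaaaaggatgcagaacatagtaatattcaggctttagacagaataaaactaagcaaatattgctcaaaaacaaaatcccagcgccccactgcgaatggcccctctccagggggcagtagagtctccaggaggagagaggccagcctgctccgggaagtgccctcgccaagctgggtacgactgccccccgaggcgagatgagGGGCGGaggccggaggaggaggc
Foxo1: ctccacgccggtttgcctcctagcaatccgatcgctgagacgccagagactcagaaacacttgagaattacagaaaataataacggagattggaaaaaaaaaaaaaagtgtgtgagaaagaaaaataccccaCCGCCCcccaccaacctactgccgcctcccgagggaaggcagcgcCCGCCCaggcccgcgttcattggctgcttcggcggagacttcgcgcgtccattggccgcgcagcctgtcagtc
Akt1: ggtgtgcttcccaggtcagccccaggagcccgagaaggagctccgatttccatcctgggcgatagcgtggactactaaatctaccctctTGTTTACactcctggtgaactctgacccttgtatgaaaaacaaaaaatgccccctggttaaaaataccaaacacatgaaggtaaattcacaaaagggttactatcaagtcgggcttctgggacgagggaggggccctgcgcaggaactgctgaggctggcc
The GC box occurred 4 times in the window of Pik3r1, 2 times each in Irs1 and Foxo1, 1 time in Tbc1d4 and 0 times in Akt1. A second Akt1 window, at chr12:112674277-112674526, holds 4 and has a GC content of 78.4%. A second Pik3r1 window, at chr13:101692631-101692880, holds 0 and has a GC content of 42.4%. Of the 32851 mouse promoter windows of this length 32.7% hold a GC box. Among the 7 genes with windows an E-box was found in Irs1, beginning 115 bases before the RefSeq start, and in Irs2, beginning 44 bases before it. For both genes the bases after the window were not found in an annotated GENCODE transcript. Their distances therefore hold for the RefSeq start only. The Irs2 window is not shown, and its RNA did not pass on HFCD. Of all windows 6.02% hold an E-box. The FOXO motif matched only in Akt1 among the 7 genes with windows, beginning 161 bases before its start, against 3.17% of all windows. CCAAT, which was searched as well and is left in lower case, occurred 3 times in Foxo1 and 1 time in Pik3r1 among the windows shown. It occurred 2 times in the Irs2 window and is held by 33.8% of all windows. In the windows shown GC content ran from 52.0% in Akt1 to 76.4% in Pik3r1, with a median of 52.4% over all windows. A match describes the letters and says nothing of binding.

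The high-fat diet went with lower RNA of most of these 9 genes in adipose tissue. Of the 9 genes, 6 fell from control to HFCD, from the receptor to the transporter, namely Insr, Irs1, Pik3r1, Tbc1d4, Slc2a4 and Foxo1. Akt1 rose, and Irs2 and Akt2 did not pass the test. Over all 15112 genes tested with edgeR, 30.0% were called in this comparison, 14.2% lower and 15.7% higher. The median log2 fold change of the 9 genes was -0.57, beside 0.00 for all genes.

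Slc2a4 (chromosome 11, 69942539 to 69948188 of GRCm38, minus strand) encodes GLUT4, the insulin-responsive transporter of fat and muscle. Its level in adipose control libraries was 236, 285 and 181 CPM, and in HFCD libraries it was 173, 118, 118 and 99.3 CPM. Every HFCD library was below every control library, although the highest HFCD and the lowest control library were close. The log2 fold change was -0.88 (SE 0.24, adjusted p = 0.0161). Tbc1d4 (chromosome 14, 101442360 to 101609191, minus strand) encodes the AKT substrate that holds GLUT4 vesicles back. Its control libraries had 77.1, 103 and 76.4 CPM against 63.4, 63.1, 51.5 and 48.5 CPM in HFCD. The groups did not overlap, and the fold change was -0.60 (SE 0.16, adjusted p = 0.0135). Of the 9 genes, 6 had no overlap between the HFCD and control groups, where 39.5% of all genes tested had none.

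At the top of the pathway the receptor and 1 of its adaptors fell. Insr (chromosome 8, 3122061 to 3279617, minus strand) had 201, 198 and 136 CPM in control libraries and 139, 119, 111 and 113 CPM in HFCD libraries. The lowest control library lay within the HFCD range, so the groups overlapped, and the log2 fold change was -0.57 (SE 0.16, adjusted p = 0.0214). Irs1 (chromosome 1, 82233101 to 82291416, minus strand) had 160, 95.3 and 87.4 CPM in control and 59.7, 22.5, 37.7 and 29.9 CPM in HFCD, with no overlap. It had the lowest fold change of the 9 genes, at -1.60 on the log2 scale (SE 0.43, adjusted p = 0.0145). Irs2, the other main adaptor (chromosome 8, 10984681 to 11008458, minus strand), had 129, 90.2 and 103 CPM in control and 136, 79.4, 84.1 and 70.0 CPM in HFCD. Its groups overlapped and its difference of -0.22 (SE 0.29, adjusted p = 0.592) did not pass.

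The kinase steps moved in different directions. Pik3r1, the regulatory subunit of phosphoinositide 3-kinase (chromosome 13, 101680563 to 101768217, minus strand), had 274, 272 and 226 CPM in control and 183, 173, 163 and 185 CPM in HFCD libraries. Its groups did not overlap and it fell by 0.55 on the log2 scale (SE 0.17, adjusted p = 0.0285). Akt1, the broadly expressed AKT kinase (chromosome 12, 112653821 to 112674884, minus strand), had 96.1, 84.0 and 113 CPM in control and 145, 141, 145 and 146 CPM in HFCD. All HFCD libraries were above all controls and close to each other, and the fold change was 0.56 (SE 0.15, adjusted p = 0.0151). Akt2, the kinase tied most closely to glucose uptake (chromosome 7, 27591552 to 27640826, plus strand), had 224, 229 and 156 CPM in control and 112, 121, 178 and 173 CPM in HFCD. The groups overlapped, and the difference of -0.47 (adjusted p = 0.162) did not pass.

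Foxo1 (chromosome 3, 52268336 to 52353221, plus strand) encodes the forkhead transcription factor that AKT inactivates. It had 371, 359 and 335 CPM in adipose control libraries and 151, 154, 166 and 178 CPM in HFCD libraries. The groups were far apart relative to their spread, with means of 355 ± 18.4 and 162 ± 12.5 CPM (SD). The log2 fold change was -1.13 (SE 0.22, adjusted p = 0.00396). This call held when any single adipose library was left out, with fold changes from -1.18 to -1.09 and adjusted p from 0.00147 to 0.019.

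The other 6 calls depended on single libraries, 2 of the 3 controls above all. Control replicate 1 had the fewest counts, the highest mitochondrial share and the highest brown-fat markers of the adipose libraries. Without it, Insr (adjusted p = 0.0983), Irs1 (0.0758), Pik3r1 (0.097), Akt1 (0.0545) and Slc2a4 (0.0529) no longer passed, while their fold changes stayed at -0.47, -1.28, -0.50, 0.55 and -0.87. Without control replicate 3, Insr (-0.49, adjusted p = 0.0841), Pik3r1 (-0.51, 0.0854), Akt1 (0.46, 0.0705), Tbc1d4 (-0.44, 0.0722) and Slc2a4 (-0.71, 0.0737) did not pass. Pik3r1 was also lost without HFCD replicate 2 (adjusted p = 0.0612), and both Pik3r1 (0.065) and Insr (0.0517) without HFCD replicate 3. Scaling mattered as well: with plain library totals the median gene moved by 0.44, and Insr (-0.09), Pik3r1 (-0.08), Tbc1d4 (-0.14) and Slc2a4 (-0.41) kept their sign but did not pass. Relative to that median these 4 stood at -0.53, -0.53, -0.58 and -0.85.

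**Figure D1:**
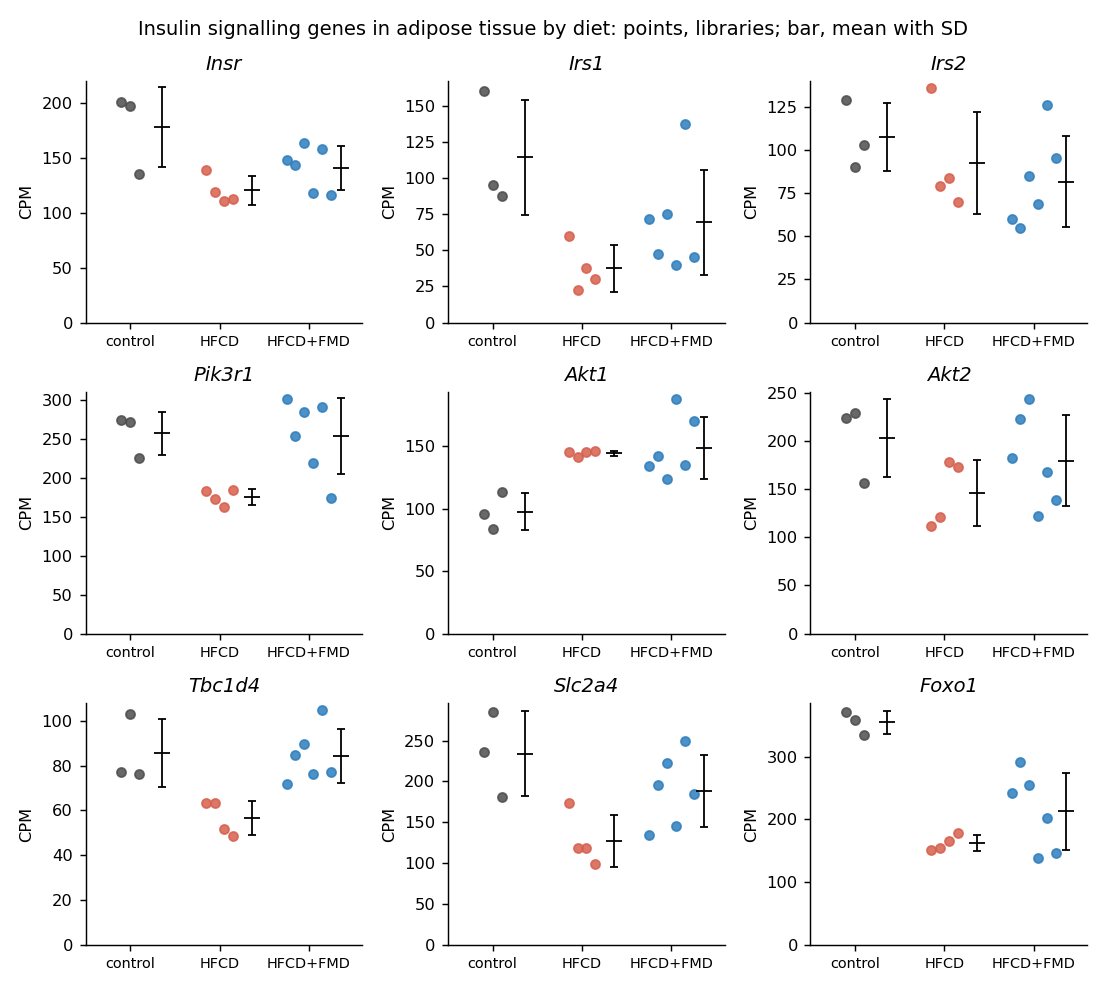
Level of each of the 9 genes in adipose tissue, in CPM on an axis from 0, by diet (control n = 3, HFCD n = 4, HFCD+FMD n = 6). Points are libraries and the black mark beside them is the mean with its SD; Foxo1 control libraries at 335 to 371 CPM stand clear of all other libraries, and Akt1 is the gene whose HFCD libraries all lie above the controls.

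Cell markers moved with diet in the same libraries. Of 11 macrophage markers 10 rose on HFCD, and their summed level was 332 to 1820 CPM in control, 2480 to 5370 in HFCD and 1370 to 3900 in HFCD+FMD libraries. Of 12 fat-cell markers 6 fell and 1 rose, with sums of 60800 to 95500, 41300 to 45200 and 28500 to 61200 CPM. Mesothelial markers fell for 5 of 7, with sums of 187 to 424, 22.4 to 117 and 29.4 to 204 CPM, and 4 of 8 fibroblast and 3 of 8 endothelial markers rose. All markers of these 5 lists were present in the table. Of 6 brown-fat markers 3 fell on HFCD, and their sum was 291 CPM in control replicate 1 and 11.3 to 24.9 CPM in the other 12 adipose libraries. Like the mitochondrial share, these markers moved with diet, and their part in the changes of the 9 genes was not tested.

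Fasting cycles on HFCD were set against uninterrupted HFCD to ask whether they altered the response to the diet. None of the 9 genes passed in adipose tissue, where 0.205% of all genes tested were called. At an unadjusted p under 0.05, 4 of the 9 would have counted, as would 1693 of all 15112 genes: Tbc1d4, Pik3r1, Slc2a4 and Irs1, each higher with fasting cycles. In sign, 8 of the 9 differences were above 0, Irs2 being the exception at -0.18, and the median was 0.39 beside 0.01 for all genes. Both adipose comparisons with HFCD share the HFCD libraries, so a low value there moves both.

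Slc2a4 ran from 134 to 250 CPM in the 6 HFCD+FMD libraries, with a median of 190 CPM. This range overlapped both the HFCD libraries, at up to 173 CPM, and the controls, at 181 CPM and above. The difference from HFCD was 0.57 (SE 0.21, adjusted p = 0.333) and that from control was -0.31 (SE 0.22, adjusted p = 0.329). Tbc1d4 ran from 72.0 to 105 CPM (median 81.0), and each of these libraries was above the highest HFCD library, at 63.4 CPM. It was the only one of the 9 genes with no overlap in this comparison, where 3.34% of all genes had none. Its difference from HFCD was 0.57 (SE 0.13, adjusted p = 0.145; DESeq2 adjusted p = 0.0104), with edgeR, voom and the other alternatives between adjusted p = 0.0829 and 0.338. Its difference from control was -0.03 (SE 0.14, adjusted p = 0.916).

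Pik3r1 ran from 174 to 301 CPM (median 269) with fasting cycles. The lowest of the 6 libraries lay inside the HFCD range of 163 to 185 CPM. The difference from HFCD was 0.53 (SE 0.15, adjusted p = 0.2, and 0.0304 with DESeq2) and that from control was -0.02 (SE 0.16, adjusted p = 0.943). Irs1 was the most scattered, from 39.8 to 137 CPM with a median of 59.5 CPM. One library, replicate 5, was near the highest control while the others lay at 74.9 CPM or below, and the differences were 0.89 from HFCD (SE 0.37, adjusted p = 0.398) and -0.72 from control (SE 0.38, adjusted p = 0.196). Without that replicate the difference from control was -1.03 and passed (adjusted p = 0.0393).

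Akt1 and Foxo1 were the 2 genes that still differed from control with fasting cycles, in a comparison that called 19.7% of all genes, 10.5% higher and 9.25% lower. Akt1 ran from 124 to 188 CPM (median 138), above every control library, and was higher by 0.60 on the log2 scale (SE 0.14, adjusted p = 0.0142). Its difference from HFCD was 0.04 (SE 0.13, adjusted p = 0.929). Foxo1 ran from 138 to 291 CPM (median 223), below every control library, and its difference was -0.74 (SE 0.20, adjusted p = 0.0248). These were also the 2 genes without overlap, against 21.0% of all genes. Neither call held without control replicate 1 (Akt1 adjusted p = 0.0666, Foxo1 0.0997) or control replicate 3 (0.0704 and 0.0728), and Foxo1 did not pass when HFCD libraries were left out of the fit (0.0594) or with plain library totals (-0.27, adjusted p = 0.245).

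The 6 HFCD+FMD libraries varied together for several of the genes. Replicates 4 and 6 had the highest Akt1, at 188 and 170 CPM, and the lowest Foxo1, at 138 and 147 CPM, and the lowest Insr, at 118 and 116 CPM. The same libraries had the highest summed macrophage markers of this group, at 3430 and 3900 CPM, where the other 4 had 1370 to 2780 CPM. They also had its lowest mitochondrial shares, at 3.9 and 2.2% of counts, where the other 4 had 4.32 to 7.47%. The part of these markers and of the mitochondrial share in the values was not tested. Insr as a whole ran from 116 to 164 CPM (median 146), Akt2 from 122 to 243 CPM (median 175) and Irs2 from 54.9 to 126 CPM (median 76.8). None of these 3 differed from either other group by an adjusted p under 0.05, and their differences from control were -0.34 (adjusted p = 0.129), -0.18 (0.604) and -0.39 (0.3). Without control replicate 5 the Insr difference was -0.50 and passed (adjusted p = 0.0311).

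**Figure D2:**
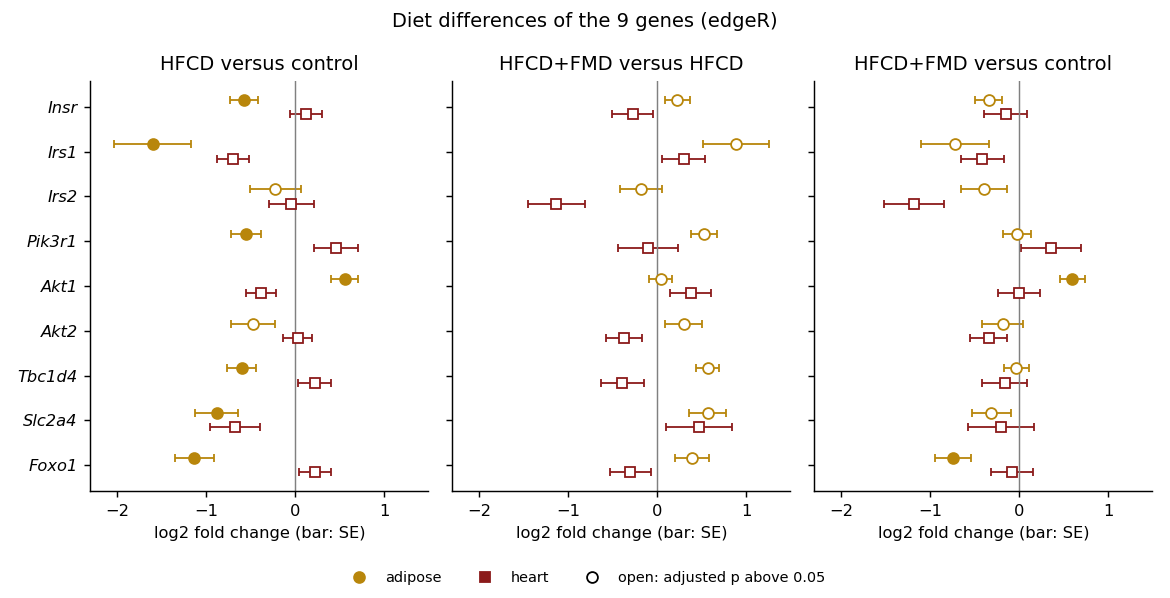
Log2 fold changes of the 9 genes with their SE from edgeR in the 3 diet comparisons, circles for adipose tissue and squares for heart; filled symbols have an adjusted p under 0.05. The filled symbols are adipose only: 6 lower and 1 higher for HFCD against control, and Akt1 higher and Foxo1 lower for HFCD+FMD against control.

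The genes around the 9 were described through 10 lists of the same pathway. On HFCD in adipose tissue 15.7% of all genes tested rose and 14.2% fell, and the list counts stand beside these shares. Of 16 other receptor and adaptor genes tested, 5 rose on HFCD in adipose tissue and 3 fell (median 0.13). Cbl, a ubiquitin ligase and adaptor, rose from 51.5 ± 11.4 to 92.0 ± 7.16 CPM (log2 fold change 0.84, adjusted p = 0.00574), and the adaptors Grb2 (0.58), Gab1 (0.42) and Gab2 (0.53) rose too. Of 12 other genes of the kinase steps 3 rose and 1 fell (median 0.37), where 30.0% of all genes were called in either direction. These 12 include the regulatory subunit genes Pik3r2 and Pik3r3. Among the rises were the catalytic subunits Pik3cd (1.38, 0.00269) and Pik3cg (1.46, 0.0106), which are best known from immune cells. The atypical protein kinase C gene Prkci fell from 102 ± 8.37 to 66.2 ± 5.17 CPM (-0.62, adjusted p = 0.00242).

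Of 21 genes that restrain insulin signalling 4 rose and 4 fell on HFCD (median 0.12). These shares were near those of all genes, 15.7% higher and 14.2% lower. Ptpn1, the phosphatase that acts on the insulin receptor, rose from 44.1 ± 8.23 to 77.1 ± 4.10 CPM (0.80, adjusted p = 0.00345). Inpp5d, a lipid phosphatase of blood cells, rose by 1.71 (adjusted p = 0.00759), and Enpp1 rose by 2.29 (0.0118) from 2.06 ± 1.61 CPM. Grb10, an adaptor that inhibits the receptor, fell from 175 ± 31.6 to 84.7 ± 8.29 CPM (-1.05, adjusted p = 0.0017). Macrophage markers rose in the same libraries, as given above.

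Transport of glucose beyond Slc2a4 changed gene by gene. Of 34 GLUT4 vesicle genes 3 rose and 3 fell (median -0.05), shares below those of all genes. Ralgapa2, part of the complex that restrains the small GTPase RALA, fell from 219 ± 54.1 to 85.7 ± 16 CPM (-1.35, adjusted p = 0.00214), and Tbc1d1, the relative of Tbc1d4 best known from muscle, rose from 21.7 ± 4.01 to 38.1 ± 1.22 CPM (0.81, 0.00741). Lrp1 (0.97) and Vamp3 (0.31) rose as well. Of 10 other glucose transporter genes 3 rose and 3 fell (median 0.19). Slc2a3, which encodes GLUT3, fell by 1.58 on the log2 scale from 11.6 ± 3.28 to 3.87 ± 0.806 CPM (adjusted p = 0.00266). The fructose transporter gene Slc2a5 fell from 10.9 ± 6.75 to 0.119 ± 0.0625 CPM (-6.55, SE 1.21, adjusted p = 0.00303), a fold that rests on few counts in HFCD. Slc2a10 (1.56) and Slc2a9 (1.51) rose from levels below 6 CPM.

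Among the downstream lists 4 had medians below 0 on HFCD, and the mTOR branch had 0.00. Of 19 genes of glucose phosphorylation and glycogen 7 fell and 2 rose (median -0.48), with the glycogen phosphorylase gene Pygl falling from 432 ± 92.3 to 95.1 ± 18.0 CPM (-2.18, adjusted p = 0.00157) and the branching enzyme gene Gbe1 from 195 ± 47.5 to 52.1 ± 4.92 CPM (-1.90, 0.00221). Of 18 other FOXO factors and targets 5 fell and 0 rose (median -0.37), among them the lipase gene Pnpla2 (-1.17) and the catalase gene Cat. Of 13 lipid genes that insulin is known to act on, 10 fell and 0 rose (median -1.46). Pde3b, the phosphodiesterase through which insulin restrains lipolysis, fell from 589 ± 137 to 232 ± 40.8 CPM (-1.34, adjusted p = 0.000687). Of 21 factors known to act on Slc2a4 transcription 5 fell and 2 rose (median -0.23): Mlxipl, which encodes the glucose-sensing factor ChREBP, fell by 1.52 (adjusted p = 0.00928), while Mef2c (0.93) and Hdac5 (0.71) rose. In the mTOR branch 2 of 19 fell, Eif4ebp1 (-0.92) and Tsc2 (-0.43), and 0 rose.

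With fasting cycles against HFCD, 0 genes of these 10 lists were called in adipose tissue, where 0.205% of all genes were. Against control, 4 of 12 other genes of the kinase steps rose and 1 fell, and 6 of 18 FOXO genes fell. Of 13 lipid genes 6 fell, and of 19 glycogen genes 5 fell while 2 rose. Of 16 receptor and adaptor genes 1 rose and 1 fell, of 21 inhibitors 3 rose and 2 fell, of 34 GLUT4 vesicle genes 2 rose and 1 fell, of 10 other transporters 3 rose and 2 fell, and of 19 mTOR genes 1 rose and 1 fell. Prkci (-0.50, adjusted p = 0.00809), Ralgapa2 (-1.02, 0.00827) and Pde3b (-1.05, 0.00258) were again among the genes called. Of the factors acting on Slc2a4, 2 of 21 rose (Hdac5 and Mef2c) and 0 fell. Of all genes tested 10.5% rose and 9.25% fell with fasting cycles against control. Both comparisons with control share its 3 libraries.

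**Figure D3:**
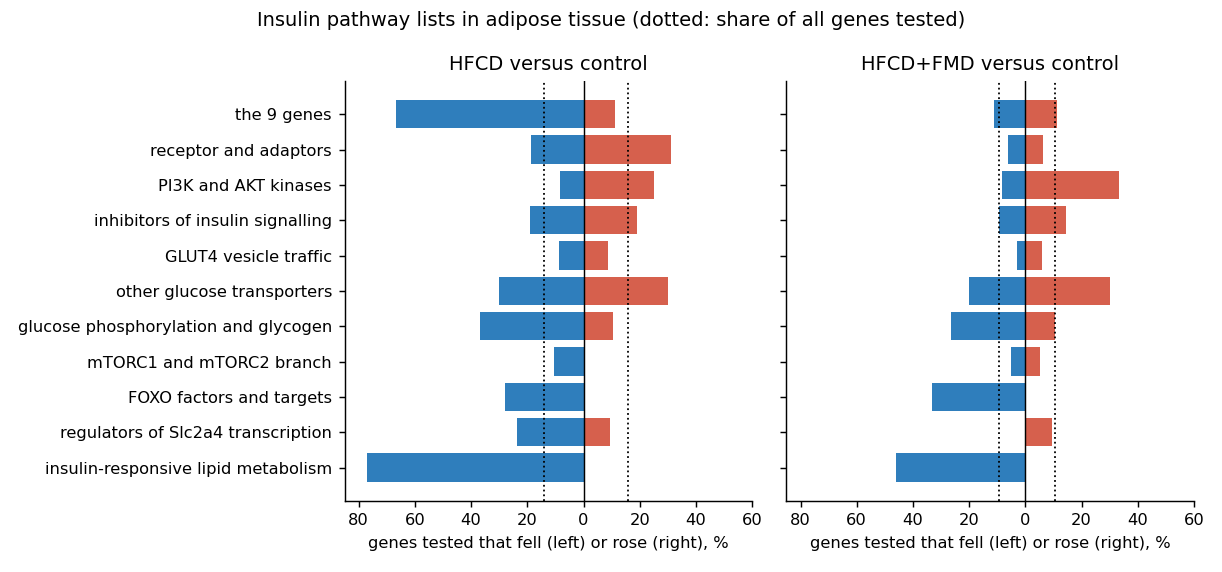
Share of the genes tested in each list that fell (left, blue) or rose (right, red) in adipose tissue, for HFCD and for HFCD+FMD against control; dotted lines give the share of all genes tested (14.2 and 15.7%, then 9.25 and 10.5%). The 9 genes and the lipid list extend furthest to the left for HFCD.

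In heart none of the 9 genes passed in any of the 3 comparisons. HFCD against control called 0% of the 13230 genes tested with edgeR (0 genes, with 1687 at an unadjusted p under 0.05, 0 with voom and 61 with DESeq2). HFCD+FMD against HFCD called 0.106%, and HFCD+FMD against control called 0.0227%. The deposited heart values had been adjusted for 3 sets of libraries, and the model therefore held the set as a factor. Control replicates 2, 3 and 5 formed set A with HFCD 1 to 4, set B held control 4 and 6 with HFCD+FMD 1, and set C held HFCD+FMD 2, 3 and 5 with HFCD 5.

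In heart the Slc2a4 level of the control libraries did not overlap that of either other group. Control libraries had 390, 336, 361, 319 and 352 CPM. HFCD libraries had 262, 260, 104, 304 and 125 CPM, and HFCD+FMD libraries had 262, 281, 153 and 168 CPM. Every HFCD and every HFCD+FMD library was below every control, a separation seen for 7.19% and 9.02% of all genes tested. The log2 fold change for HFCD was -0.67 (SE 0.28, adjusted p = 0.377 over all genes with edgeR), and within set A alone it was -0.59 (adjusted p = 0.421). For HFCD+FMD against control it was -0.20 (SE 0.37, adjusted p = 0.876) with the set factor and -0.70 (adjusted p = 0.183) without it. The difference between HFCD+FMD and HFCD was 0.47 (SE 0.37, adjusted p = 0.749).

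The low heart values of Slc2a4 lay in libraries with many mitochondrial counts. In 4 libraries, HFCD replicates 3 and 5 and HFCD+FMD replicates 3 and 5, more than 50% of the counts came from mitochondrially encoded genes. These 4 held the lowest Slc2a4 values, 104 to 168 CPM, and the other 10 held 260 to 390 CPM. Akt1 was likewise lowest in them, at 90.6 to 117 CPM against 121 to 180 CPM elsewhere. Akt2 (73.9 to 102 against 52.6 to 71.9 CPM) and Foxo1 (46.5 to 57.2 against 30.7 to 44.1 CPM) were highest in them, and the other 5 genes overlapped. The share of all genes that separate on this split was not counted, so the separation cannot be read as particular to these genes. Without these libraries the Slc2a4 difference between HFCD and control was -0.35 (adjusted p = 0.416). In that fit set C held only HFCD+FMD replicate 2, so both contrasts of HFCD+FMD rested on its replicate 1 alone. They were -0.45 against control and -0.10 against HFCD, and the change of sign in the latter cannot be tied to the mitochondrial share. Summed heart-muscle markers were 47000 to 68200 CPM in control, 32600 to 45600 in HFCD and 52500 to 59800 in HFCD+FMD libraries. Summed atrial muscle markers were 3010 CPM in HFCD replicate 5 and 696 CPM in HFCD replicate 3, which had the 2 lowest Slc2a4 values, and 6.85 to 126 CPM in the other 12 heart libraries. The part of these markers and of the mitochondrial share in the Slc2a4 values was not tested.

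**Figure D4:**
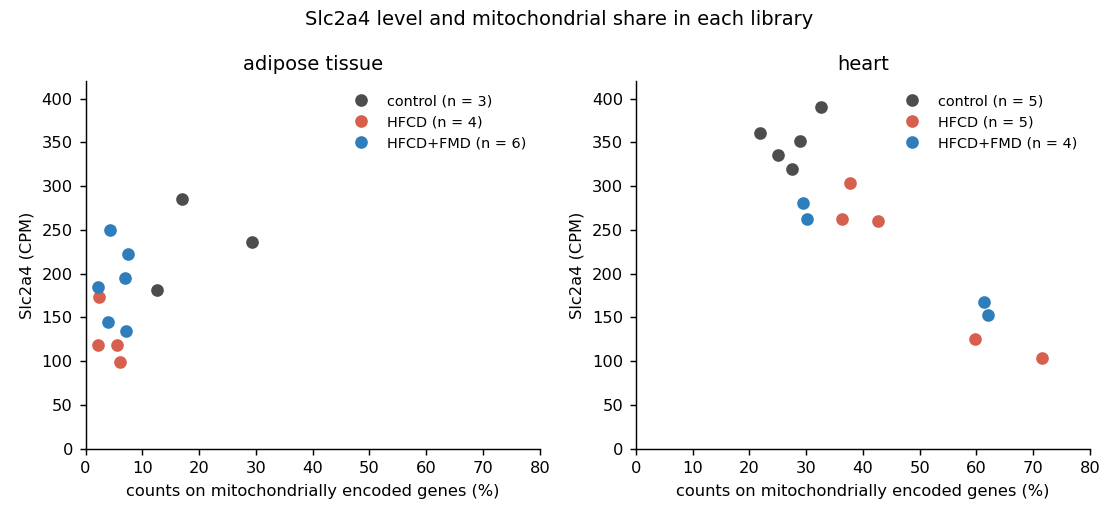
Slc2a4 in CPM (axis from 0) against the percentage of counts on mitochondrially encoded genes, 1 point per library, for adipose tissue and heart. In heart the 4 libraries above 50% hold the 4 lowest values, 104 to 168 CPM, and all control libraries lie above 319 CPM or at it.

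Irs1 did not pass in heart either. It had 25.9, 49.8, 39.6, 46.7 and 48.1 CPM in control and 26.2, 26, 25.7, 26 and 31.8 CPM in HFCD libraries. Only control replicate 2 reached down to the HFCD range, and that library had the lowest control value for 5 of the 9 genes. The log2 fold change was -0.70 (SE 0.18, adjusted p = 0.367 with edgeR), -0.66 within set A (adjusted p = 0.394) and -0.91 without control replicate 2 (adjusted p = 0.0653). With fasting cycles Irs1 had 30.1, 36.4 and 41 CPM in replicates 1, 2 and 3, and replicate 5 lay just above the highest control value of 49.8 CPM.

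Irs2 was the lowest-expressed of the 9 genes in heart. It had 8.41, 15.8, 18.9, 16.7 and 16.8 CPM in control libraries, 9.38, 13.1, 8.89, 19 and 23.8 CPM in HFCD and 8.92, 12.2, 8.61 and 8.54 CPM in HFCD+FMD. The HFCD+FMD values sat at the low end of both other groups and overlapped them. The log2 fold changes were -1.13 against HFCD (SE 0.32, adjusted p = 0.157) and -1.18 against control (SE 0.34, adjusted p = 0.267). From the deposited, set-adjusted log2 values limma gave -1.14 (adjusted p = 0.0073) and -1.18 (adjusted p = 0.00778), a fit that does not count the adjustment for sets among its parameters. Without the set factor edgeR gave -0.63 (adjusted p = 0.513) and -0.67 (adjusted p = 0.197).

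The kinases, Insr, Tbc1d4 and Foxo1 completed the set in heart. Akt1 had 136 to 180 CPM in control, 90.6 to 144 in HFCD and 107 to 172 in HFCD+FMD, with -0.38 for HFCD against control (SE 0.17, adjusted p = 0.39). Akt2 lay between 61.5 and 71.9 CPM in control and reached 102 and 91.4 CPM in the other groups. Insr (94.2 to 187 CPM in control), Tbc1d4 (49.6 to 111 CPM) and Pik3r1 (84.9 to 240 CPM) had wide control groups that covered most other libraries. Control replicate 2 was the lowest control for each, and the other controls held 157 to 187, 76 to 111 and 153 to 240 CPM. Their differences for HFCD against control were 0.12, 0.22 and 0.46 (adjusted p = 0.753, 0.571 and 0.431 with edgeR). Foxo1 was low, between 30.7 and 57.2 CPM over all 14 libraries, with a difference of 0.22 for HFCD against control (SE 0.18, adjusted p = 0.542). Between HFCD+FMD and HFCD 0 of the 9 genes were without overlap, against 4.65% of all genes. Of the 10 pathway lists, 1 gene was called in heart: Pdk4, a FOXO target that restrains pyruvate oxidation, was lower in HFCD+FMD than in HFCD (-2.77, SE 0.47, adjusted p = 0.0405), with 347 to 486 CPM against 453 to 3650 CPM. That call was lost with the stricter filter, without the set factor and without HFCD+FMD replicate 3. Each of these fits called 0 genes in this comparison. The call was also lost without HFCD replicate 5 and without the 4 libraries of high mitochondrial share. There the set factor left the contrast resting on HFCD+FMD replicate 1 alone.

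**Figure D5:**
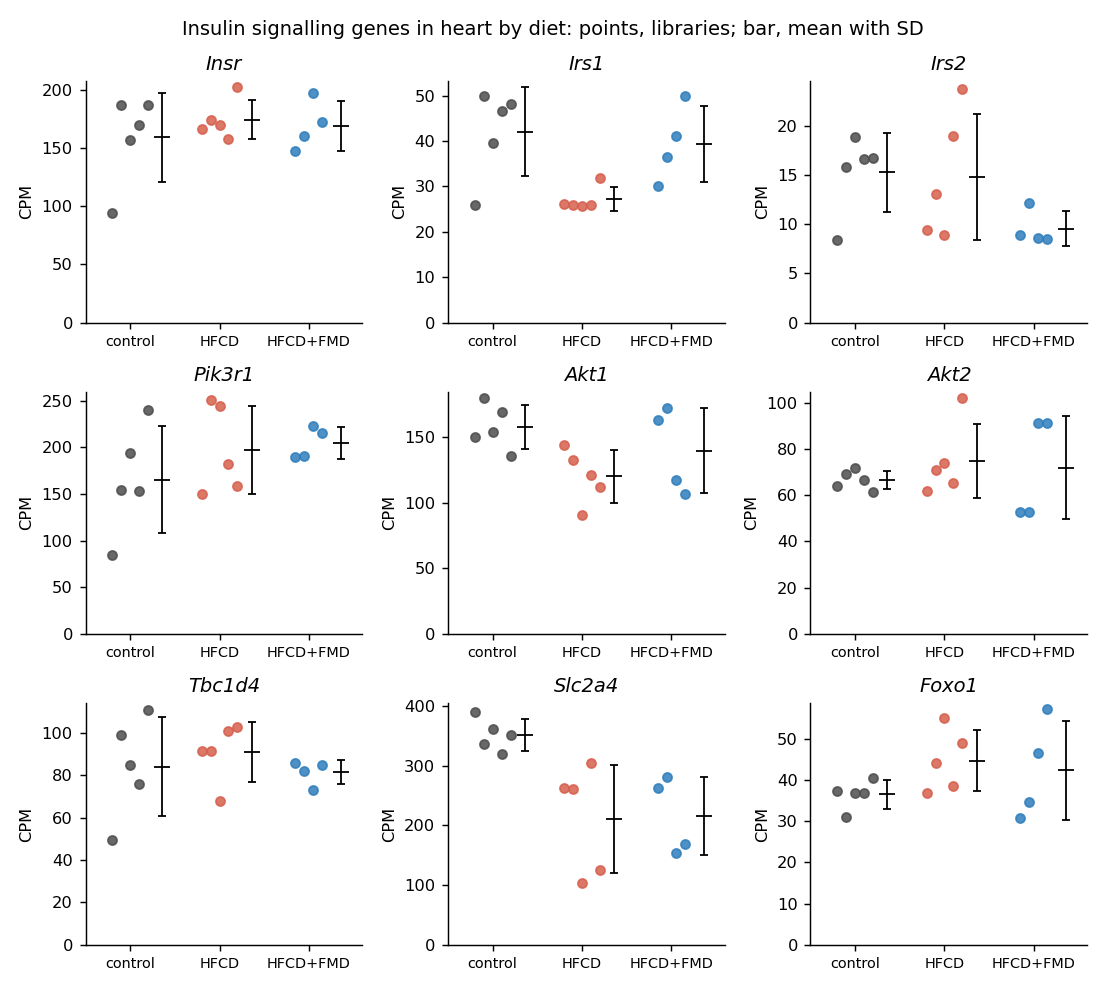
Level of each of the 9 genes in heart, in CPM on an axis from 0, by diet (control n = 5, HFCD n = 5, HFCD+FMD n = 4). Points are libraries and the black mark is the mean with its SD; Slc2a4 is the gene whose control libraries, 319 to 390 CPM, all lie above the other libraries.

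Whether the diet difference itself differed between the tissues was tested as an interaction over both tissues. For HFCD against control 4 of the 9 genes passed, where 22.0% of the 12606 genes tested did. Foxo1 had fold changes of -1.13 in adipose tissue and 0.22 in heart, and their difference in the joint fit (heart minus adipose) was 1.40 (SE 0.28, adjusted p = 0.00153). Akt1 went the other way, at -0.97 (SE 0.23, adjusted p = 0.00472). Insr (0.69, SE 0.23, adjusted p = 0.0381) and Tbc1d4 (0.70, SE 0.25, adjusted p = 0.043) passed narrowly, and neither passed with age in the model (0.0503 and 0.0509). Insr also lost the call when 1 of 8 libraries was left out (adipose control 1 or 3, adipose HFCD 2, 3 or 4, heart control 4, heart HFCD 2 or 5, with an adjusted p of at most 0.114). Tbc1d4 lost it for 12 (adipose control 1 or 3, adipose HFCD 2, 3 or 4, heart control 2, 4 or 5, heart HFCD 1, 2, 4 or 5, at most 0.163). Slc2a4 did not pass this test (0.13, SE 0.39, adjusted p = 0.825), which does not show that its response was alike.

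For HFCD+FMD against control the interaction passed for Foxo1 (0.96, SE 0.27, adjusted p = 0.0207) and Akt1 (-0.78, SE 0.22, adjusted p = 0.0212), where 17.1% of genes did. Akt1 lost this call without adipose control replicate 1 (0.057) or 3 (0.0753) and without heart HFCD+FMD replicate 3 (0.0557) or 5 (0.0562), and Foxo1 without adipose control replicate 1 (0.0566) or heart HFCD+FMD replicate 5 (0.0667). For HFCD+FMD against HFCD 0 of the 9 genes passed and 0.0159% of genes did, with Tbc1d4 nearest at -0.71 (SE 0.23, adjusted p = 0.344). The joint model had no set factor and treated the tissues as independent. Since some mice gave both tissues, its p-values ignore a pairing that the labels do not show. This also holds for the comparison of the tissues on the control diet.

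Genes whose levels followed a member most closely were listed by Pearson's r of log2 CPM over the libraries of a tissue, as a description, since all libraries share the diets and the scaling. For adipose Slc2a4 (13 libraries, 9247 genes of at least 10 CPM on average) these were Immt (0.96), Lman2 (0.95), Gfm2 (0.95), Mtif2 (0.94) and Naa38 (0.93). Immt, Gfm2 and Mtif2 encode mitochondrial proteins. Slc2a4 was itself among the 5 nearest genes of Tbc1d4 (0.89), the closest pair among the 9 genes. Akt1 was nearest to Tmsb10 (0.98), Ripk3 (0.97), Myd88 (0.96), Lig1 (0.96) and Maged2 (0.95), and Foxo1 to Irak1bp1, Dennd2d and Tpmt (0.97 each), Mpv17 and Sec61a2 (0.96 each). Akt1 and Foxo1 ran against each other, at -0.87. For heart Slc2a4 (14 libraries, set term removed) the nearest were Coq10a, Yars2, Tmem38a and Slc4a3 (0.97 each) and Slc25a11 (0.96).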

How the data were processed

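Total RNA depleted of ribosomal RNA was sequenced, per the labels' protocols. The submitters' processing notes name STAR 2.5.3, mm10, R 3.5.3, edgeR and limma, and the counting program was not given in the sources used here. Values deposited by the authors are whole-number counts of reads for each gene, and log2 CPM with 0.5 added. In heart the deposited log2 values also lack 1 term per gene shared within 3 sets of libraries, recovered to within 9.8e-09, and what the sets stand for was not given. Of 34 labelled libraries 27 were used and 7 were not analysed here; 0 sample columns were left out.

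Counts were tested in R 4.3.3 with edgeR 4.0.16 (TMM, filterByExpr on diet, robust quasi-likelihood F-test, two-sided, 3 diets in 1 fit per tissue, library set as a factor in heart), with Benjamini-Hochberg adjustment over all genes at 0.05. The SE is the log2 fold change divided by the root of F. The fits were tested on simulated data. Alternatives were RLE scaling, DESeq2 1.42.0, voom (limma 3.58.1), other filters, only 2 diets, age, the deposited log2 values, no set factor, set A alone and each library left out. Library totals without TMM, no mitochondrially encoded genes and no libraries above 50% mitochondrial counts were added after seeing the data. Positions and exon lengths are GENCODE M21 (GRCm38). All 9 members are reported whatever their result, with up to 4 called genes of smallest adjusted p per list. The 5 nearest genes are given for Slc2a4, Akt1 and Foxo1. They are not printed in full for the other called members, Insr, Irs1, Pik3r1 and Tbc1d4. The members and lists were chosen with earlier results of these data known. One gene called in a list is not reported here.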

Additional observations from a re-analysis of the deposited data

Results flagged for a closer look

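In 3 of 45 groups of 4 to 6 libraries, 1 value of a member stood apart from the rest by Dixon's test, a rate that chance alone gives in about 5% of groups. Irs1 in adipose HFCD+FMD replicate 5 was 137 CPM, where the other 5 libraries had 39.8 to 74.9 CPM. Irs1 in heart HFCD replicate 5 was 31.8 CPM, above 25.7 to 26.2 CPM in the others. That library is the only HFCD one of its set and had 59.8% mitochondrial counts and 3010 CPM of summed atrial muscle markers, where the other heart libraries had 6.85 to 696 CPM. Irs2 in heart HFCD+FMD replicate 2 was 12.2 CPM, above 8.54 to 8.92 CPM.

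The diet difference differed between the tissues for 4 members by the interaction test (heart minus adipose, log2). For HFCD against control these were Insr (0.69), Akt1 (-0.97), Tbc1d4 (0.70) and Foxo1 (1.40). For HFCD+FMD against control they were Akt1 (-0.78) and Foxo1 (0.96).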

How the results depend on the processing

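The adipose calls rest on 3 control libraries, the heart contrasts of HFCD+FMD on the 2 libraries that tie its sets to the other diets, and depth limits none of the 9 genes, which had at least 112 counts in each library. The Foxo1 fall on HFCD in adipose tissue passed under every alternative run. No paired analysis was possible because the replicate numbers follow accession order and the labels tie no libraries to animals.

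The number of genes called in adipose HFCD against control, HFCD+FMD against HFCD and HFCD+FMD against control (4532, 31 and 2978) ran from 2348 to 4854, 5 to 80 and 663 to 3500 when 1 library was left out. The lowest counts against control came without control replicate 1, and without control replicate 3 they were 2991 and 1164. For HFCD+FMD against HFCD DESeq2 called 302 and voom 60, and against control voom called 1916 and the fit of only 2 diets 1834. Plain library totals called 6877 genes for HFCD (6205 higher, 672 lower) and 7246 for HFCD+FMD against control (6892 higher, 354 lower), as the median gene moved by 0.44 and 0.47. In that fit Irs2 turned to 0.26 for HFCD, and Insr (0.16), Irs2 (0.10), Pik3r1 (0.46), Akt2 (0.30), Tbc1d4 (0.44) and Slc2a4 (0.17) turned positive for HFCD+FMD against control.

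In heart (0, 14 and 3 genes) DESeq2 called 61, 279 and 145 and the deposited log2 values 51, 1328 and 1193. For HFCD+FMD against HFCD and against control, voom called 1 in the latter, the stricter filter 0 and 1, only 2 diets 268 and 0, age 2 in the former, plain totals 3 and 6, no set factor 0 and 0, and the fit without the 4 libraries of high mitochondrial share 0 and 0. Leaving out 1 library gave 0 to 368 and 0 to 217. Voom called 1 gene for the tissue difference in HFCD+FMD against HFCD (2), and the 3 tissue differences ran from 1691 to 2966, 0 to 21 and 970 to 2843 with 1 library left out.

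Some member values changed sign. With only 2 diets Pik3r1 in heart was 0.40 against HFCD, a contrast within set C that rested on HFCD replicate 5 alone. Against control it was -0.20, within set B, from HFCD+FMD replicate 1 alone. With plain totals heart HFCD gave Insr -0.30, Akt2 -0.36, Tbc1d4 -0.15 and Foxo1 -0.20, and Pik3r1 0.19 for HFCD+FMD against HFCD. Without the set factor Pik3r1 was 0.06 against HFCD, and Insr 0.09, Akt2 0.11 and Foxo1 0.21 against control. Without the 4 libraries Irs2 was 0.01 and Akt2 -0.02 for HFCD. In the same fit Slc2a4 was -0.10 against HFCD and Pik3r1 -0.20 against control, contrasts that rested on HFCD+FMD replicate 1 alone. The tissue difference of Tbc1d4 for HFCD+FMD against control was 0.03 with RLE and 0.04 with voom.

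With 1 library left out, values that changed sign ran as follows in adipose tissue: Akt1 -0.04 to 0.09 and Irs2 -0.34 to 0.07 against HFCD, and Pik3r1 -0.11 to 0.07 and Tbc1d4 -0.10 to 0.13 for HFCD+FMD against control. In heart they were Insr -0.08 to 0.26, Irs2 -0.25 to 0.11 and Akt2 -0.01 to 0.07 for HFCD, Pik3r1 -0.85 to 0.40 against HFCD, and Slc2a4 -0.45 to 0.10, Foxo1 -0.34 to 0.23 and Pik3r1 -0.20 to 1.06 for HFCD+FMD against control. Tissue differences were Irs2 -0.06 to 0.41 and Slc2a4 -0.04 to 0.31 for HFCD and Tbc1d4 -0.17 to 0.11 for HFCD+FMD against control. The cause of these changes was not tested.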
